A study of Mus musculus with 4 samples.

Results

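The lymph node chemokines and homing receptors are the genes by which lymphoid tissue gathers and holds lymphocytes. The members are Cxcl13, Ccl19, Ccl21a, Ccr7, Cxcr5, Ccr6, Lta and Ltb, chosen as homeostatic chemokines, their receptors and lymphotoxins. They make 8 of 18951 genes that could be named on the arrays. Their probes were found through the probe's RefSeq accession, and each member had 1 probe except Ccl19, which had 2. The members were chosen by signals of these same arrays, on 1 of which lymphocyte genes had been seen to be high. Their values on that array, and the knockout against wild-type contrast that contains it, are therefore given as a description with no test.

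The 4 arrays carried Cy3-labelled RNA from the mammary glands of female mice 13 weeks of age, at a stage before tumours. All of these mice carry a Δ16HER2 transgene, a splice form of the human receptor HER2 that lacks 1 exon and drives mammary tumours. Of the arrays 2 came from mice labelled WT for stathmin (WT 1 and WT 2) and 2 from mice labelled STM KO, the stathmin knockout (KO 1 and KO 2). The labels do not say whether glands of several mice were pooled, which glands were taken, or what promoter drives the transgene. The free-text description of every sample names EOC cells instead of mouse tissue, against the other labels, and was not used. With 2 arrays per group, which the labels do not tie to separate animals, the spread between arrays may be technical.

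Lymph node stroma makes the homeostatic chemokines, which are secreted without inflammation. Reticular fibroblasts of the T zone make Ccl19 and Ccl21a, the ligands of Ccr7, and follicular dendritic and reticular cells make Cxcl13, the ligand of Cxcr5. Lymphocytes carry the receptors and enter a node from the blood through high endothelial venules, whose walls bear sugars and chemokines that arrest them. Lymphocytes also make lymphotoxin, a complex of the products of Lta and Ltb. It signals through the lymphotoxin beta receptor, Ltbr, on stromal cells, and by way of the kinase of Map3k14 and the NF-κB subunits of Relb and Nfkb2 it raises stromal chemokine expression. In the mouse a lymph node lies within the inguinal mammary fat pad, and the labels do not say whether it was left in the samples.

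Array KO 2 stood apart for these genes, and results are given with and without it. A level below is the log2 processed signal relative to the array's 75th percentile, which was a signal of 191 on WT 1, 144 on WT 2, 291 on KO 1 and 160 on KO 2. A reading is called well above background where the scanner software marked it so, which held for 54.7% to 66.2% of spots per array. No spot was saturated. In bulk tissue, fewer cells of a type and less RNA per cell cannot be told apart. All 8 fibroblast and 6 adipocyte genes listed, and 7 of 8 epithelial genes, were well above background on every array, as a check of the labelled tissue (the other, Cdh1, was dim on WT 2). Krt8, a luminal keratin, had levels of 5.25, 5.38, 5.25 and 4.65 and Adipoq, an adipocyte hormone, had 6.71, 7.28, 6.69 and 6.75 on WT 1, WT 2, KO 1 and KO 2. The label calls the tissue epithelial, and the adipocyte and fibroblast readings show that other cells were present. The brighter probe of the targeted gene Stmn1 gave signals of 9222, 1740, 6865 and 1621, so it did not separate the genotypes. The other probe gave 87.6, 13.8, 5.57 and 4.84, lower on both KO arrays, but only WT 1 was well above background. The positions of the probes relative to the deletion are not known here, and the arrays keep the names of their labels.

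All 8 members were highest on KO 2. The level there exceeded the highest of the other 3 arrays by a median of 3.87 on the log2 scale over the members, with a range from 1.53 (Lta) to 5.77 (Ccl19). For 7 of the 8 the excess was at least 4-fold, and 0.75% of the 13204 genes tested had such an excess on KO 2. The same excess on another array was found for 0.0833% of genes on WT 1, 0.0833% on WT 2 and 0.00757% on KO 1. Over all tested genes the median of this difference was -0.22, and 25.7% were highest on KO 2. The shares for KO 2 belong beside the counts of the lists below. They are not over a like set, because Ccr7 and Cxcr5 were not among the tested genes. Genes well above background on KO 2 alone could not be tested and are missing from the 0.75%. Since the excess on KO 2 chose the members, nothing is read from their count.

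**Figure D1:**
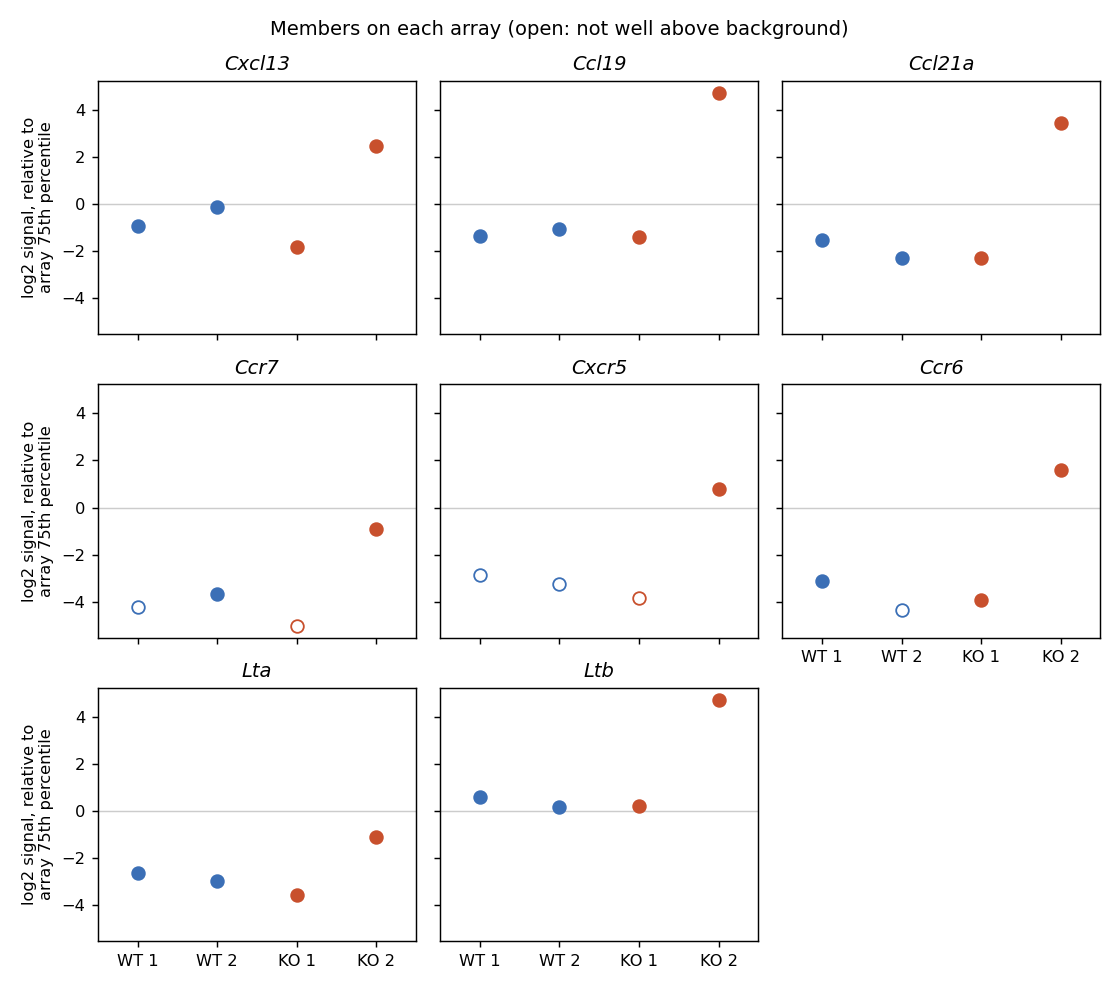
Level of each member (brightest probe) on the 4 arrays, as log2 processed signal relative to the array's 75th percentile. Blue points are WT arrays, orange points KO arrays, and open points were not well above background. In every panel the KO 2 point is the highest, while the other 3 lie within 0.36 (Ccl19) to 1.68 (Cxcl13) of each other.

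The 8 genes lie on chromosomes 4, 5, 9, 11 and 17 (GRCm38.p6, RefSeq gene bounds). Ccl19 (chr4:42754525-42756365) and Ccl21a (chr4:42772860-42773991) are near neighbours, as are Ltb (chr17:35194507-35196305) and Lta (chr17:35203165-35205578). Cxcl13 lies at chr5:95956939-95961068, Ccr7 at chr11:99144199-99155077, Cxcr5 at chr9:44511787-44526444 and Ccr6 at chr17:8236041-8258519.

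The stroma-made chemokines were well above background on all 4 arrays. Ccl19, which guides Ccr7-bearing T cells and dendritic cells, had levels of -1.33 on WT 1, -1.03 on WT 2, -1.39 on KO 1 and 4.73 on KO 2 (NM_011888; signals 75.9, 70.5, 111 and 4256). Its KO 2 signal was 54.5-fold above the next array after scaling, and the other 3 arrays lay within 0.36 of each other. The second Ccl19 probe read -1.28, -1.17, -1.36 and 4.66 in the same order, an excess of 5.83 on the log2 scale. Both probes put the 4 arrays in the same order.

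Ccl21a, the other Ccr7 ligand, made by T zone stroma, high endothelial venules and lymphatic endothelium, read -1.51, -2.26, -2.29 and 3.42 (NM_011124; signals 67.3, 30.0, 59.5 and 1717). The excess of KO 2 over the next array was 30.5-fold. The mouse genome holds near-identical copies of this gene, such as Ccl21b, and Gm2023 is a copy of Ccl19, so what these probes read among the copies is uncertain. Cxcl13, the chemokine that draws B cells into follicles, read -0.93, -0.12, -1.80 and 2.46 (NM_018866; signals 101, 132, 83.6 and 880). It had the smallest excess of the 3, 2.58 on the log2 scale over WT 2, and the widest spread among the other arrays, from KO 1 at the bottom to WT 2 at the top.

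The 250 bases before the annotated start of each of these 3 genes are shown because the 3 had their highest reading on the same array (RefSeq, GRCm38.p6, 5′ to 3′ on the gene's strand). The stretches are chr5:95956689-95956938 on the + strand for Cxcl13, chr4:42756366-42756615 on the - strand for Ccl19 and chr4:42773992-42774241 on the - strand for Ccl21a, each just upstream of the gene and outside its exons. Capitals mark TATAAA, searched on both strands and found in 12.4% of the 32851 windows of that length in the table. Cxcl13 holds it 46 bases before its start, and the other 2 windows hold none.
Cxcl13: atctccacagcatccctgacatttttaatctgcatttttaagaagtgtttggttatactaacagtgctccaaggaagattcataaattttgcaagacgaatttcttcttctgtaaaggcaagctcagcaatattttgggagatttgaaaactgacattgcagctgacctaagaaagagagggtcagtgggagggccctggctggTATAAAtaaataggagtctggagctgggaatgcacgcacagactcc
Ccl19: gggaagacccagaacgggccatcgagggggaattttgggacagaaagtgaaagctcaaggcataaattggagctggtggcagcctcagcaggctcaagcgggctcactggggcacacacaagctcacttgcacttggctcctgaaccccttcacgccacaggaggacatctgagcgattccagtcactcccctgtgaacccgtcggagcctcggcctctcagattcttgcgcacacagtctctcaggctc
Ccl21a: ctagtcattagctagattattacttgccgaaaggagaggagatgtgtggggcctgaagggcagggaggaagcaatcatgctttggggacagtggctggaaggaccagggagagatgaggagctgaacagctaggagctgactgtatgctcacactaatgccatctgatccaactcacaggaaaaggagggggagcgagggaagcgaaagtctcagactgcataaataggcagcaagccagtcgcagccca
The consensus NF-κB decamer, searched on both strands, was in none of these 3 windows. It was in 7.25% of all windows of that length. These letters say nothing about which factors bind.

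Of the lymphocyte receptors, only KO 2 gave a reading well above background for all of them. Ccr7, the receptor of naive T cells, B cells and mature dendritic cells for Ccl19 and Ccl21, read -4.22 on WT 1, -3.66 on WT 2, -5.02 on KO 1 and -0.89 on KO 2 (NM_007719; signals 10.2, 11.4, 8.96 and 86.3). It was well above background on WT 2 and KO 2, and KO 2 was 6.82-fold above WT 2. Cxcr5, the Cxcl13 receptor of B cells and follicular helper T cells, read -2.84, -3.24, -3.84 and 0.81 (NM_007551; signals 26.7, 15.2, 20.3 and 280). Its reading was above background on KO 2 alone, at least 12.5-fold above the others. Both genes failed the filter on dim probes, so 6 of the 8 members entered the test across genes.

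Ccr6, a receptor of B cells and of Th17 and innate lymphoid cells, read -3.12, -4.35, -3.91 and 1.57 (NM_009835; signals 22.0, 7.08, 19.4 and 476), with WT 2 not well above background. KO 2 exceeded WT 1 by 25.9-fold. No array gave a reading above background for its ligand Ccl20. The receptors thus lay near the dim end on 3 arrays. Under another background treatment (normexp on median spot signals with an offset of 50) the excess on the log2 scale was 1.05 instead of 2.77 for Ccr7, 0.84 instead of 3.65 for Cxcr5 and 3.1 instead of 4.69 for Ccr6, with KO 2 still the highest array. That treatment changed the signal, the background model and the offset together.

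The lymphotoxin genes differed from each other in the size of their excess. Ltb, whose product anchors the complex in the membrane, read 0.61, 0.18, 0.21 and 4.71 (NM_008518; signals 292, 164, 338 and 4186), 17.1-fold above the next array on KO 2. Lta, whose product also forms a secreted trimer, read -2.65, -2.99, -3.56 and -1.13 (NM_010735; signals 30.4, 18.2, 24.7 and 73.3), an excess of 2.88-fold. Under normexp the excess on the log2 scale was 0.71 instead of 1.53. The Lta probe was printed on 10 spots per array, which shows the technical precision of a dim reading. The SD over spots was 0.20 on WT 1, 0.25 on WT 2, 0.26 on KO 1 and 0.22 on KO 2. The lowest of the 10 spots on KO 2 read -1.55 and the highest spot on any other array -2.19, so the spots of KO 2 did not overlap those of the rest. Spots are repeat readings of 1 sample and no replicates.

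**Figure D2:**
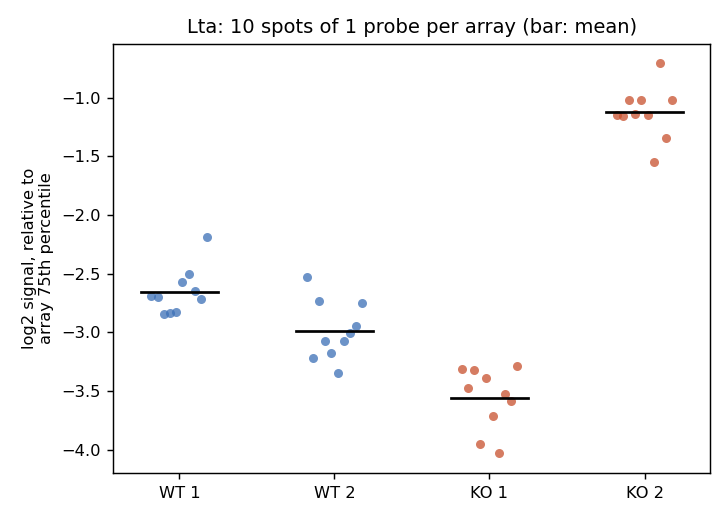
Lta level on each of 10 spots per array, as log2 processed signal relative to the array's 75th percentile, with a bar at the mean. The KO 2 spots run from -1.55 to -0.71 and lie above all spots of the other 3 arrays, whose means are -2.65, -2.99 and -3.56.

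The window of Ltb is shown because it holds the NF-κB decamer, which the windows of the 3 chemokines do not (chr17:35194257-35194506, + strand, RefSeq, GRCm38.p6). Capitals mark the match, which begins 87 bases before the start and lies on the opposite strand. Over all windows of that length 7.25% hold the decamer, and nothing about binding is read from it here. Of the 6 members with a window in the table (none for Ccr7 and Cxcr5), Ltb and 1 of the 2 starts of Ccr6 hold the decamer. At Ccr6 it is a stretch of 11 bases, GGGGAATTCCC, that matches in overlapping positions on both strands.
Ltb: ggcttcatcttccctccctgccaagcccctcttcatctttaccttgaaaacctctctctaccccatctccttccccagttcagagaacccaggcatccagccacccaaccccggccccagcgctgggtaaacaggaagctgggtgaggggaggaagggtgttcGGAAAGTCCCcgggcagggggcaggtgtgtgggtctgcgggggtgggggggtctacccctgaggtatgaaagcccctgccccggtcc

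Compared by genotype, the 8 members had knockout minus wild-type differences with errors as large as the differences themselves. The median was 2.45 on the log2 scale over the stroma-made members and 1.52 over the 5 lymphocyte-made members, against -0.01 over all tested genes. Ccl19 had 2.85 ± 3.07 (SE, n = 2 per group), Ccr6 2.57 ± 2.81, Ccl21a 2.45 ± 2.88 and Ltb 2.06 ± 2.26. Cxcr5 had 1.52 ± 2.33, which rests on 3 readings not well above background and gives no fold. Ccr7 had 0.98 ± 2.09, Cxcl13 0.86 ± 2.17 and Lta 0.48 ± 1.23. Under normexp the lymphocyte-made median was 0.31, the value of Ccr7, with Cxcr5 at 0.12, Ccr6 at 1.31 and Lta at 0.085. For 0 of the 8 members did both KO arrays lie above both WT arrays (17.8% of all tested genes), and for 0 did both lie below (17.7%). In limma's test 0% of the 13204 genes had an adjusted p under 0.05 (the smallest was 0.934), with 468 genes at an unadjusted p under 0.05.

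Without KO 2 the direction of the genotype difference turned. KO 1 lay below the mean of the WT arrays for all 8 members, with medians of -0.41 over the stroma-made and -0.74 over the lymphocyte-made genes, while 51.4% of all tested genes lay below. Of the 5 members well above background on these 3 arrays, Cxcl13 had -1.28, Lta -0.74, Ccl21a -0.41, Ccl19 -0.21 and Ltb -0.19. Ccr7, Cxcr5 and Ccr6 each had 1 or more dim readings among the 3, so neither the size nor the direction of their differences is read. They are included in the count of 8 and in the lymphocyte-made median. The lowest level well above background was also lower on KO 1 (-4.79) than on WT 2 (-3.78). This direction depended on the scaling. After quantile normalization 7 of 8 members lay below WT, and after scaling to the median 4 of 8 did, with Cxcl13 at -1.13 and -0.81. Median scaling placed the median of all genes 0.45 above WT on KO 1, and relative to that shift all 8 members lay lower. After quantile normalization the shift was 0.06, and Ccr6, which was dim on WT 2, lay above it. Without KO 1 instead, the differences ran from 1.69 (Lta) to 5.92 (Ccl19).

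Stroma-made and lymphocyte-made members overlapped in their excess on KO 2. The 3 stroma-made genes had 2.58, 4.93 and 5.77 on the log2 scale and the 5 lymphocyte-made genes ran from 1.53 to 4.69. The ligands Ccl19 and Ccl21a had 5.77 and 4.93 and their receptor Ccr7 had 2.77. Under normexp the values were 4.95, 3.86 and 1.05. Ccr7 was not well above background on WT 1 and KO 1, and dim readings limit its excess under both treatments. For Cxcl13 and its receptor Cxcr5 the order depended on the processing, with 2.58 against 3.65 here and 2.51 against 0.84 under normexp. No test was made between members. Their excess on KO 2 chose them, so no order between ligands and receptors is read.

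**Figure D3:**
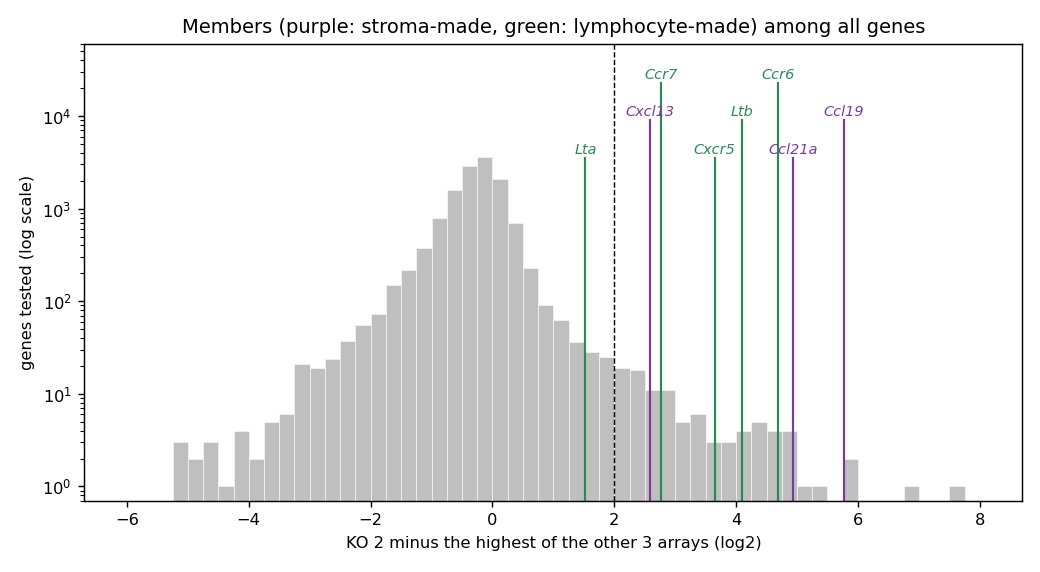
Number of genes (grey bars, log scale) by the level on KO 2 minus the highest of the other 3 arrays (log2), over 13204 tested genes. Purple lines are stroma-made and green lines lymphocyte-made members, and the dashed line marks a 4-fold excess, which 0.75% of genes reach and Lta alone of the members does not. Ccr7 and Cxcr5 are drawn but were not among the tested genes.

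Of the 10 other homeostatic chemokines listed 8 were well above background on at least 1 array, 3 of these were highest on KO 2 and 0 by 4-fold. Ccl17, a ligand of Ccr4 named after its value was seen, had the largest excess of the list, 3.31-fold (-3.77, -2.43, -3.46 and -0.70), which is more than that of the member Lta. Cxcl12, the stromal chemokine that retains Cxcr4-bearing cells, read 4.57, 5.19, 4.95 and 4.83, and the skin chemokine Ccl27a read 0.40, -0.06, 0.48 and 0.21. Ccl28, a mucosal chemokine that the lactating gland makes, was dim on WT 2 and KO 1 and read -3.77 on WT 1 and -3.92 on KO 2. Of 10 other chemokine receptors 8 were measured and 1 reached 4-fold, the gut-homing receptor Ccr9, at 6.13-fold and a level of -0.78 on KO 2. Cxcr4 was highest on WT 1, at -0.57 against -2.97, -2.48 and -2.08. The scavenging receptor Ackr3 read 3.58, 3.45, 3.17 and 3.11. Ackr4, which removes Ccl19 and Ccl21, read -3.16, -3.68, -4.15 and -3.14, with WT 2 not well above background. Limma called 0 of 7 tested chemokines and 0 of 6 tested receptors, and 0 of either had an unadjusted p under 0.05.

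The receptor of lymphotoxin was lowest on the array where its ligands were highest. Ltbr, the receptor on stroma, read -0.34 on KO 2 against 0.97 on WT 1, 0.88 on WT 2 and 0.94 on KO 1. The NF-κB kinase gene Map3k14 read -0.08, -0.02, 0.12 and 0.85 and Relb read 0.89, 0.45, 0.46 and 1.45, so both were highest on KO 2 by less than a doubling. Tnf, the neighbour of the lymphotoxin genes on chromosome 17, was not well above background on the WT arrays and read -3.54 on KO 1 and -1.98 on KO 2. Tnfsf14, which also binds Ltbr, read -4.01, -5.44, -4.96 and -2.27, and Tnfrsf14 had -3.49, -3.48, -4.46 and -3.40. Neither gene was well above background on WT 2 or KO 1. Tnfrsf13c, the BAFF receptor of B cells, was the 1 gene of 18 on the list with a 4-fold excess, at 3.59 on the log2 scale, and is named after its value was seen. Limma called 0 of 15 tested genes, and 1, Tnf, had an unadjusted p under 0.05.

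Lymphocyte adhesion genes were mostly highest on KO 2. Of 14 on the array 13 were highest there (25.7% of all tested genes) and 6 by 4-fold or more (0.75%), with a median excess of 1.84. Lymphocyte genes had been seen to be high on KO 2, so these counts are a description. S1pr4, counted among the 13, was well above background on KO 2 alone. The excesses of the list overlapped those of the members, which were chosen for theirs, so no order between them is read. Itgal, the chain of LFA-1, had 9.99-fold (-2.38, -2.64, -2.71 and 0.94) and Selplg, the P-selectin ligand, 4.13-fold (-0.39, 0.19, -0.68 and 2.23). The integrin genes Itga4 and Itgb7 read -0.61 and 1.73 on KO 2, with excesses of 1.78 and 2.04 on the log2 scale. Limma called 0 of 13 tested genes, and 0 had an unadjusted p under 0.05.

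Markers of B and T cells were high on KO 2 as well, the array on which lymphocyte genes had been seen to be high. Their counts are therefore a description. All 9 measured genes of the B cell list (12 listed) were highest on KO 2, 8 by 4-fold or more, with a median excess of 3.49. Ms4a1 had 114-fold, Cd79b 23.0-fold and Cd79a 4.85-fold. All 15 measured T cell genes (16 listed) were highest there, 12 by 4-fold or more, with a median of 3.72. A gene counted as measured when it was well above background on at least 1 array. Fcrla of the B cell list and Zap70, Cd8a, Lef1, Themis and Il7r of the T cell list passed through KO 2 alone. For these the filter largely set which array was highest. Cd3d had 30.5-fold, Lck 17.9-fold, Cd3g 17.5-fold and Cd3e at least 7.54-fold. The summed linear level of the B cell list, where 1 is the array's 75th percentile, was 1.44 and 1.22 on the WT arrays, 0.90 on KO 1 and 31.1 on KO 2. For the T cell list it was 1.54, 1.28, 1.33 and 29.5. The members summed to 3.27, 3.11, 2.28 and 74.8. The part of these cells in the members' values was not tested.

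Genes of lymph node stroma and venules gave mixed readings on KO 2. Of the high endothelial venule list 7 of 9 were measured and 2 had a 4-fold excess. Glycam1, a mucin of venules and also a milk protein, had 9.69-fold and read 0.53 on WT 1, -4.75 on WT 2, -6.56 on KO 1 and 3.80 on KO 2, with WT 2 and KO 1 not well above background. Fut7, the fucosyltransferase that completes selectin ligands in venules and leukocytes, had 9.56-fold (-2.05, -3.58, -3.57 and 1.21), with WT 2 not well above background. Madcam1, the mucosal venule addressin, and Sele had no reading well above background. The sulfotransferase genes Chst4 and Chst2 read -3.06 and -3.22 on KO 2 and -2.67 and -3.01 on WT 1, and Gcnt1, a branching enzyme of the same sugars, read -3.48 and -2.82. Selp read -1.71, -0.99, -1.15 and -1.27, and Enpp2, which makes a lipid that helps lymphocytes cross venules, read 2.03, 2.55, 2.77 and 3.02. The list summed to 6.56, 6.80, 7.58 and 25.2, of which Glycam1 made most on KO 2.

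In the follicular dendritic and reticular list 11 of 13 genes were measured, 7 were highest on KO 2 and 2 had a 4-fold excess. These 2, Fcer2a and Grem1, counted as measured through KO 2 alone, which largely set the array where they were highest. Cr2, a complement receptor of follicular dendritic and B cells, was at least 2.42-fold above the other arrays, and Fcer2a, the IgE receptor of the same cells, at least 12.7-fold, with KO 2 its only reading above background. Grem1, a BMP antagonist of reticular fibroblasts, named after its value was seen, was above background on KO 2 alone at a level of 0.97, at least 26.8-fold over the rest. Il7 was not above background on any array, and Pdpn, a reticular and lymphatic marker, read -2.25, -2.43, -3.06 and -2.62. The list's sums, 244, 336, 226 and 277, were set by Mfge8, which mammary epithelium also makes.

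Lists of other cells that make or answer these chemokines had 0 genes with a 4-fold excess on KO 2, against 0.75% of all tested genes. At that share lists this short would hold few or none, so nothing is read from the 0. Of all tested genes 25.7% were highest on KO 2. Of the lymphatic endothelium list 1 of 7 measured genes was highest on KO 2 and 0 by 4-fold. Lyve1 read 0.47, 2.21, 0.64 and 1.15, Reln was lowest on KO 2 at -1.81, and Prox1 and Flt4 were dim on 1 or more arrays of each group. Its summed level lay between 9.19 on KO 2 and 11.7 on WT 2. Of 8 measured dendritic cell genes 7 were highest on KO 2 but 0 by 4-fold, with sums of 3.69, 3.17, 2.62 and 7.08. Flt3 and Siglech counted as measured through KO 2 alone, which largely set the array where they were highest. Flt3 read -3.23 on KO 2, its only reading above background, Zbtb46 read -3.17 there and -3.22 on WT 2, and Xcr1 was not above background on any array. Clec9a read -2.52 on KO 2 and -2.30 on WT 1. For innate lymphoid genes the counts were 2 of 4 and 0, with Il1r1 at 0.69, 1.51, 1.52 and 1.26. Il22, a cytokine of these cells, read -2.83 on KO 2, its only reading above background, so the filter largely set its place in that count. Fibroblast genes were highest on KO 2 in 0 of 8 cases, blood endothelial genes in 1 of 8, macrophage genes in 0 of 5, adipocyte genes in 0 of 6 and epithelial genes in 0 of 8. The epithelial list summed to 126, 122, 93.8 and 65.7. It includes the milk protein gene Csn2, at levels of 5.29, 3.26, 0.10 and 0.67, so part of these differences is that of 1 gene. In limma's test 0 genes of the venule, stroma, B cell, T cell, dendritic, innate lymphoid and lymphatic lists were called, and 0 had an unadjusted p under 0.05. Of the blood endothelial, fibroblast, macrophage, adipocyte and epithelial lists 0 genes were called as well. At an unadjusted p under 0.05 stood 1 fibroblast gene (Col3a1), 1 macrophage gene (Cd163) and 2 milk protein genes of the epithelial list (Csn2 and Csn3), all lower in the knockout and named after their values were seen.

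**Figure D4:**
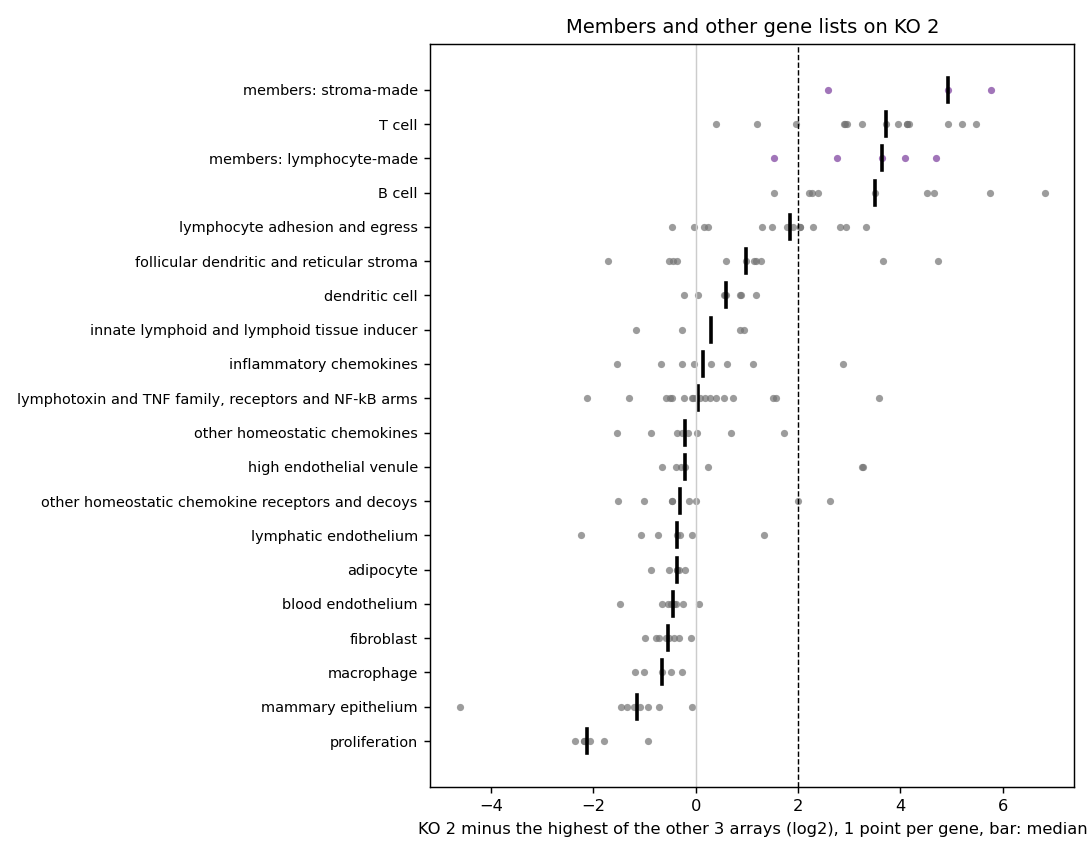
Level on KO 2 minus the highest of the other 3 arrays (log2) for each gene that was well above background on at least 1 array (points), by list, with the median as a bar. Dashes mark a 4-fold excess. The medians are 4.93 for the stroma-made members, 3.65 for the lymphocyte-made members (1.05 under normexp), 3.72 for the T cell list and 3.49 for the B cell list. The members were chosen for this pattern, so their place is no result. Several lists have medians below 0, among them the fibroblast, macrophage and epithelial lists, as does the median over all tested genes (-0.22).

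The genes most like the members over the 4 arrays were sought outside the lists as well, and 3 of the 16 nearest (Itgal, Cd6 and Lck) are on a list. Likeness was the Euclidean distance between profiles centred on their mean over the arrays, among tested genes that are no members. Nearest to the mean profile of the lymphocyte-made members (-0.58, -0.94, -1.36 and 2.88) were Dtx1 (distance 0.14), Il4i1 (0.21), Rasal3 (0.24), Lat, an adaptor of the T cell receptor (0.27), Pglyrp2 (0.29), Acap1 (0.35), Itgal (0.44) and Cd52 (0.48). Nearest to the stroma-made profile (-1.09, -0.97, -1.66 and 3.71) were Traf3ip3 (0.11), the T cell costimulator Icos (0.14), Gimap3 (0.29), Tbc1d10c (0.32), the B cell coactivator Pou2af1 (0.42), Cd6 (0.67), Ptprcap (0.75) and Lck (0.77). With 4 arrays of which 1 stands apart, closeness mainly states that a gene is high on KO 2 by a like amount.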

How the data were processed

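One-colour Agilent arrays measured RNA in 4 mammary gland samples. The deposited spot files hold background-subtracted processed signal intensities; the file headers name Agilent Feature Extraction 11.5.1.1 and the submitters' processing notes name 10.7.3.1. A deposited log2 table matched the scanner signals once these were quantile-normalized and each probe was centred on its median (r of at least 0.99999 across probes), with column medians of -0.018, 0.0183, 0.00626 and -0.00958 for WT 1, WT 2, KO 1 and KO 2.

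Levels are log2 processed signals scaled to the 75th percentile of their array, without control spots and 35 to 73 spots per array with outlier flags. Spots of a probe were averaged, and a probe counted as well above background when most of its spots were. Accessions without version were matched to RefSeq (GRCm38.p6), which named 27812 of 41168 probes. A gene was represented by its brightest probe. Probes well above background on both arrays of a group were tested (24182 probes) with limma 3.58.1 in R 4.3.3 (lmFit, eBayes, Benjamini-Hochberg, threshold 0.05). The code was run on simulated data whose noise was set far below the spread of these arrays. That run therefore says nothing about the power of the test here. Differences of members carry the SE from the spread of the 2 arrays per group. For dim readings the array's lowest well-above-background level stood in where it was higher, when KO 2 was set against the other arrays. The members and gene lists were chosen with earlier results of these data known. Named genes were all members, the first 4 genes of each list as written (the whole venule list), and the 8 most like each member profile. Of the blood endothelial, fibroblast, adipocyte, epithelial, macrophage and proliferation lists the first 4 are given by counts only, save Krt8, Adipoq, Col3a1 and Cd163. Map3k14 and Relb were added as arms of the pathway, and Cdh1 and Mfge8 for a count and a sum they set. Fcrla, Zap70, Cd8a, Lef1, Themis, Il7r, S1pr4 and Siglech are named for how they passed the filter of measured genes. In every list a gene could pass that filter through KO 2 alone. Of the members and gene lists, 3 genes are not reported here and enter no count, median or sum of these. The array number limits the precision of every value.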

Additional observations from a re-analysis of the deposited data

How the results depend on the processing

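Scaling, background correction, the authors' table, the dim-probe filter, the probe rule, the replicate block and each left-out array were tried as planned, and the excess of KO 2 under 5 other treatments was added after seeing the data. At an adjusted p under 0.05, limma called 0 genes in the reported fit and in each alternative except median scaling, where it was 3 (Scrg1, Csn1s2a and Slc6a2, no members; named after their values were seen) and the cause was not tested. Leaving out 1 array kept that count at 0, moved the median of the stroma-made members to between -0.41 and 5.31 and that of the lymphocyte-made members to between -0.74 and 3.85, negative only without KO 2. With all arrays kept, the stroma-made median was 1.80 to 2.65 and the lymphocyte-made median 0.31 to 1.86, lowest under the normexp correction, which changed the signal, background model and offset together. The filters on dim probes were not applied to the member medians. With the replicate block (no label pairs same-numbered arrays, whose deviations correlated at 0.06) the count was 0 and the medians stayed at 2.45 and 1.52. The normexp correction used median spot signals, since the planned mean signals were not used here. Signal over background limits Ccr7, Cxcr5 and Ccr6.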

Other observations

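Inflammatory chemokines, which are induced rather than constitutive, gave no common pattern with the members. Of 10 on the array 8 were measured, 4 were highest on KO 2 and 1 by 4-fold. That gene was Ccl5, which T and NK cells store, at 0.47 on WT 1, 0.87 on WT 2, 0.38 on KO 1 and 3.74 on KO 2, a 7.32-fold excess. Ccl2, a monocyte chemokine, was lowest on WT 1 (-0.31, against 1.78, 1.25 and 1.51). The interferon-induced chemokines Cxcl10 and Cxcl9 read -2.06, -2.28, -2.58 and -1.45 and 0.10, 0.42, 0.76 and 1.07. Limma called 0 of 7 tested genes, with 1 at an unadjusted p under 0.05.

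Of the 6 proliferation genes listed 0 were highest on KO 2. Their summed level was 26.7 on WT 1, 6.06 on WT 2, 16.9 on KO 1 and 7.80 on KO 2. The relation of these sums to the levels of the members was not tested.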
